A study of Zea mays with 18 samples.

Results

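A set of 95 maize genes was abundant in shoots and near absent from roots, and their course over iron sufficiency, iron deficiency and iron resupply was followed in the shoots. The genes were chosen from 40690 by their own levels: at least 100 CPM (counts scaled to library size) in each of the 9 shoot libraries, and a median of at most 0.5 CPM over the 9 root libraries. CPM were computed with edgeR's TMM scaling over all 18 libraries. The contrast of shoots with roots therefore defines the set and is described without a test, while the contrasts between iron conditions within shoots played no direct part in the choice. The requirement of 100 CPM in every shoot library does leave out genes that drop below it in one condition.

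The plants were wild-type W22, a maize (Zea mays) inbred line. They grew in hydroponic culture for 12 days and were then kept for 3 days either with iron (+Fe, called sufficient) or without it (-Fe, called deficient). Some of the deficient plants next received iron as 0.1 mM FeSO4-EDTA (Fe resupply, called resupplied), the other plants were given new solution, and roots and shoots were harvested apart from each other 24 hours later. Each of the 6 groups had 3 biological replicates. The labels do not say how many plants made up a replicate, and no further allele, line or agent is named in them.

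Iron is needed in green tissue for the electron carriers of photosynthesis, among them photosystem I, the cytochrome complexes and ferredoxin, and for steps of chlorophyll synthesis. Iron-starved young leaves of grasses turn pale between the veins. Genes for the photosynthetic machinery are a textbook case of transcripts that abound in leaves and are scarce in roots. Whether the 95 genes include such genes could not be checked: the files give W22 identifiers without gene names, and 0 of these identifiers occur in the RefSeq table of 49888 B73 (NAM-5.0) genes that was at hand. For the same reason no role is given for any gene below, no sequence is shown, and the tissue labels could not be set against known marker genes.

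The 95 genes spanned 120.2 to 1935 CPM as means over the 9 shoot libraries, with a median of 290.1 CPM. Of them, 51 lay below 300 CPM and 10 were among the 100 most abundant genes of the shoot. The 5 most abundant held 20% of the set's summed CPM and the 10 most abundant 33.4%. The lowest count of any of them in any shoot library was 6220. The spread between replicates had a median coefficient of variation of 6.97% in sufficient, 6.19% in deficient and 8.43% in resupplied shoots. For the 1455 other genes with at least 100 CPM in each shoot library these medians were 6.96%, 5.19% and 5.57%. Near the threshold, the lowest shoot values inside the set were 102.9, 103.2 and 104.8 CPM, and the highest outside it were 97.1, 96.8 and 96.6 CPM. A further 28 genes met the root limit and had a mean of at least 100 CPM but a shoot library below it; 14 of them fell and 2 rose in deficiency, by the test described further on.

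The word absent holds for roots only as a trace level. The median root level of the 95 genes ran from 0 to 0.485 CPM, 17 genes had a median of 0, and 1 gene had no count in any root library, which leaves 94 with a count in at least one. Just outside the threshold lay genes with root medians of 0.503, 0.546 and 0.568 CPM. The summed level of the set in the 9 root libraries was 12.9 to 107.0 CPM, against 33418 to 50650 CPM in shoots. The others were exceeded by a pair of root libraries, sufficient root library 3 with 107.0 CPM and resupplied root library 1 with 70.6 CPM, while the other 7 held 12.9 to 35.7 CPM. In sufficient root library 3, 34 of the 95 genes exceeded 1 CPM, and in resupplied root library 1 it was 19, against at most 10 elsewhere. The highest single root value was 10.3 CPM. The main shoot tests below use the shoot libraries alone, and a fit with the roots included is given beside them as an alternative.

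Calls in the authors' deposited root tables touched 3 genes of the set, which are named after their values were seen. The same root libraries had served to choose the set. A root median of at most 0.5 CPM restricts which root groups can be high. The shares called in roots therefore cannot show whether the set responds there more or less often than other genes, and no conclusion is drawn from them. The values of these 3 genes are given as a description of trace levels. Zm00004b022613 stood at 0.199, 0.0727 and 0.116 CPM in the 3 sufficient root libraries, at 2.54, 3.00 and 2.599 CPM in the deficient ones, and at 1.46, 0.474 and 0.240 CPM in the resupplied ones. The deficient roots lay above all 6 others. In the authors' deposited table for deficient against sufficient roots its log2 fold change was 2.00 with an adjusted p of 9e-18 (DESeq2), while the ratio of the mean CPM was 4.39 on the log2 scale; the reason for this gap was not tested. It was the 1 gene of the set called in that authors' deposited table, where 88 of the 95 are listed, 52 have an adjusted p and 6.75% of all genes with an adjusted p are called. In the authors' deposited table for resupplied against deficient roots 3 genes of the set are called among 25 with an adjusted p, where 10% of all genes with one are. Their log2 fold changes in that authors' deposited table are -0.74 for Zm00004b022613 (adjusted p = 0.016, DESeq2), 0.71 for Zm00004b020047 (0.022) and -0.47 for Zm00004b028306 (0.0496). Zm00004b020047 stood at 0.251, 0.105 and 0.388 CPM in deficient and 1.35, 1.46 and 0.491 CPM in resupplied roots, and Zm00004b028306 at 0.0753, 0.702 and 1.81 CPM in deficient and 0, 0.0541 and 0.0120 CPM in resupplied roots. In the authors' deposited table for resupplied against sufficient roots 0 of the 45 genes of the set with an adjusted p are called (DESeq2), where 2.8% of all genes are. In shoots Zm00004b022613 was at 209.1, 181.9 and 166.5 CPM with sufficient iron and at 163.3, 143.8 and 129.9 CPM in deficiency.

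Total estimated counts per library ran from 69390438 to 84318039 in shoots and from 63058129 to 78431980 in roots. All 95 genes passed the filter on low counts in shoots, where 26318 genes were tested with edgeR's quasi-likelihood F-test over the 9 shoot libraries. "Rose", "fell", "called", "higher" and "lower" refer to an adjusted p under 0.05 (Benjamini-Hochberg over all 26318 genes), and fold changes are on the log2 scale with their standard error (SE). In whole shoots, fewer cells of a type and less RNA per cell cannot be told apart.

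Over the 3 conditions, 59 of the 95 genes (62.1%) differed in a single test of any difference among the shoot groups, a test that called 13.7% of all genes. Among the 59, the mean level was highest in sufficient shoots for 46, in resupplied shoots for 7 and in deficient shoots for 6. It was lowest in deficient shoots for 42 and in resupplied shoots for 17, and for 0 of the 59 in sufficient shoots. The most frequent order, with 35 genes, was sufficient above resupplied above deficient. The order sufficient, deficient, resupplied was found for 11, resupplied, sufficient, deficient for 7, and deficient, sufficient, resupplied for 6. Of all 3608 genes called in that test, 43.8% had their highest mean in sufficient shoots, and of the 630 called among the other abundant shoot genes, 51.7% had, against 78.0% of the 59. The lowest mean was in deficient shoots for 71.2% of the 59, 62.2% of the 630 and 40.9% of the 3608. It was in resupplied shoots for 28.8%, 25.6% and 38.1% in that order. Sufficient above resupplied above deficient was the order of 216 of the 630 and 756 of the 3608.

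**Figure D1:**
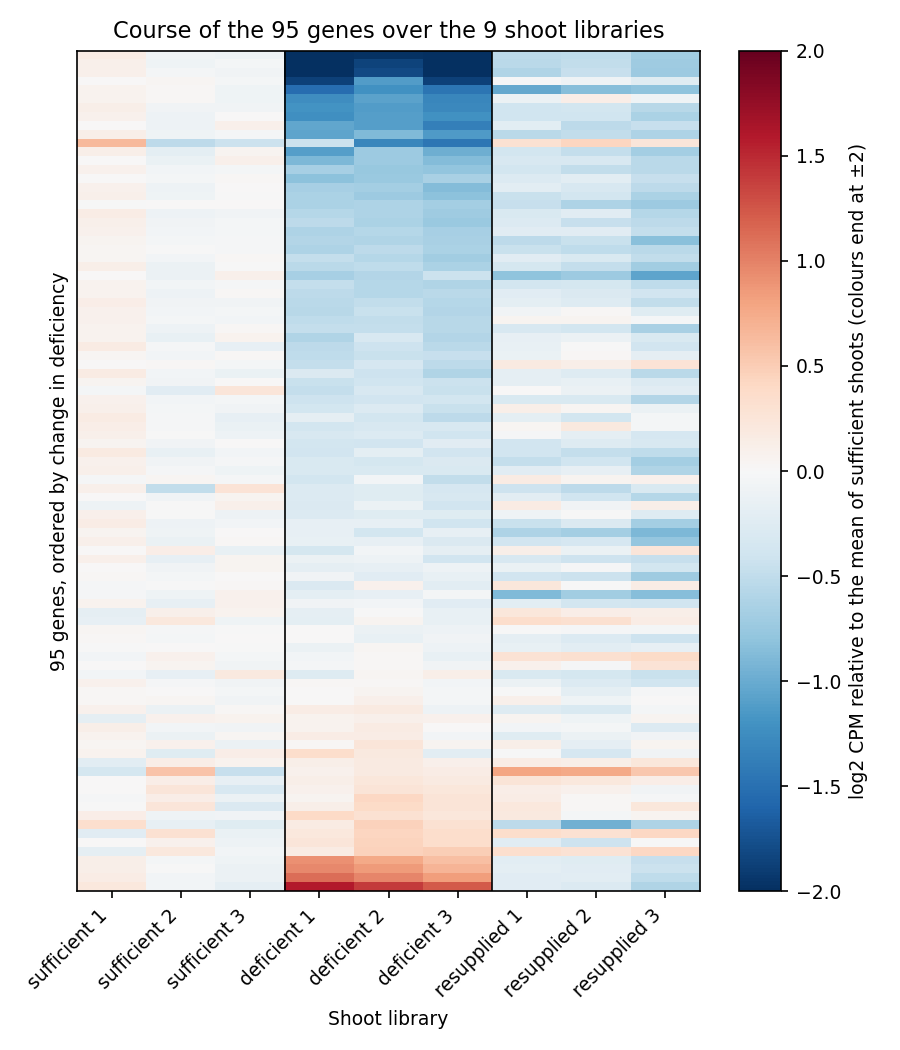
Each row is 1 of the 95 genes and each column 1 of the 9 shoot libraries (3 sufficient, 3 deficient, 3 resupplied); colour gives log2 CPM relative to the gene's mean in sufficient shoots, with rows ordered by the fitted change in deficiency. The upper rows are low in all 3 deficient libraries, and the 4 lowest rows, the 4 genes that rose, are high there and not in the resupplied ones.

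As a group, the 95 genes took up 4.13%, 3.95% and 3.99% of all counts in the 3 sufficient shoot libraries, 3.36%, 3.45% and 3.19% in the deficient ones, and 3.65%, 3.62% and 3.43% in the resupplied ones. The sufficient libraries lay above all 6 others, while the deficient and resupplied ranges overlapped. On the TMM-scaled CPM used for single genes these ranges did not overlap, with sums of 33418 to 36941 CPM in deficient and 37644 to 41193 CPM in resupplied shoots. The means were 4.03 ± 0.094%, 3.34 ± 0.13% and 3.57 ± 0.12% (SD, n = 3), a difference of -17.1% in deficiency and of -11.4% after resupply, both relative to sufficient shoots. On summed TMM-scaled CPM the differences were -26.6% and -17.5%, and the rise from deficient to resupplied shoots was 12.4% in place of 6.97%. No test was made on this sum. Its return on resupply depends on the genes left out and on the scaling. Without the 5 most abundant, the share was 3.08 ± 0.071% in sufficient, 2.90 ± 0.093% in deficient and 2.78 ± 0.081% in resupplied shoots. On TMM-scaled CPM the sums without these 5 were 36803 ± 1646, 30770 ± 1334 and 30979 ± 1332 CPM in the same order. The other 1455 abundant shoot genes took up 50.2 ± 0.62%, 45.7 ± 0.37% and 47.5 ± 0.31% of the counts in the same order.

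**Figure D2:**
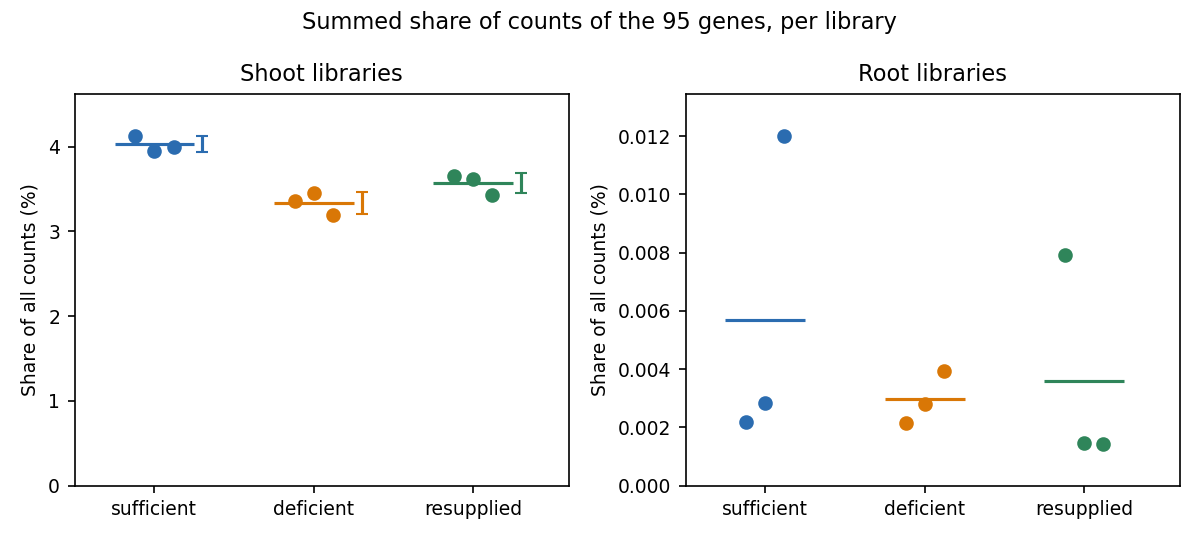
The summed share of all counts (percent) taken by the 95 genes in each library, with shoots in the left panel, roots in the right panel on their own scale, points for libraries and horizontal lines for group means; error bars in the shoot panel are 1 SD of 3 libraries. Sufficient shoots sit between 3.95 and 4.13%, above all deficient and resupplied shoots, and sufficient root library 3 is the highest root library at 0.0120%.

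In deficiency, genes of the set mostly fell where they changed. In deficient against sufficient shoots 48 of the 95 genes were called (50.5%), where 5.7% of all genes were. Of the 95, 44 fell (46.3%), where 4.44% of all genes fell, and 4 rose (4.21%), where 1.26% did. The median log2 fold change of the set was -0.31, against 0.009 over all 26318 genes, with a range of -2.27 to 1.41. Of the 44, 10 fell at least 2-fold, and the median change of the 44 was -0.58. Falls of at least 2-fold were found for 100 of all 26318 genes and for 18 of the other 1455 abundant shoot genes. The median change of the genes that fell was near that of the 44, at -0.52 over all genes and -0.51 among those 1455. In 56 of the 95 genes all 3 deficient libraries lay below all 3 sufficient ones, as in 13.2% of genes tested, and in 6 they lay above, as in 10.8%. Among the other 1455 abundant shoot genes 286 fell (19.7%), 26 rose (1.79%) and the median was -0.06.

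The split of directions follows the scaling in part. With total counts alone the median of all genes moves to 0.18, and 36 of the 95 genes were lower and 16 higher, with the set's median at -0.13. Total counts called 3808 of all genes, in place of 1499 with TMM. The distance of the set's median from that of all genes was -0.32 with TMM and -0.31 with total counts. A second limit is the choice of libraries in the fit: with all 18 libraries in 1 model, which takes in the roots where these genes are near 0, the median SE of the 95 log2 fold changes was 0.40 in place of 0.088 and 1 gene was called, Zm00004b007961, with the median change still at -0.31. That model called 519 of all genes.

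The largest fall was that of Zm00004b019791, which stood at 2252, 1928 and 1895 CPM in sufficient, 403, 513 and 346 CPM in deficient and 1403, 1426 and 1255 CPM in resupplied shoots. The 3 groups did not overlap, with resupplied shoots in between. Its log2 fold change in deficiency was -2.27 ± 0.13 (SE, n = 3 against 3, adjusted p = 3.5e-06, edgeR). Zm00004b019793, the most abundant gene of the set, had the next largest fall, from 3279.6, 2867 and 2975 CPM to 753, 842 and 572 CPM, a log2 fold change of -2.07 ± 0.13 (adjusted p = 3.5e-06, edgeR). It stood at 2089, 2173 and 1861 CPM after resupply, between the other groups in every library.

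The identifier between these, Zm00004b019792, belongs to the set too and is named for its neighbours after its values were seen. Its levels were 2505, 2282 and 2213 CPM in sufficient, 571, 665 and 463 CPM in deficient and 1539, 1695 and 1414 CPM in resupplied shoots, and its log2 fold change in deficiency was -2.04 ± 0.12 (adjusted p = 3.5e-06, edgeR). The 3 identifiers in a row thus moved alike, and together they made up 15.3 ± 0.45% of the set's summed CPM in sufficient, 4.82 ± 0.67% in deficient and 12.5 ± 0.58% in resupplied shoots (SD, n = 3). Whether the 3 genes are similar enough in sequence to have exchanged reads in the authors' counting was not tested, so their separate levels are uncertain.

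All 4 genes that rose carry identifiers within a span of 10. Zm00004b007961 went from 266.7, 222.4 and 205.2 CPM in sufficient to 693.0, 611.9 and 543.9 CPM in deficient shoots, a log2 fold change of 1.41 ± 0.13 (adjusted p = 4.9e-05, edgeR). Zm00004b007952 went from 1032, 898 and 855.4 CPM to 2009.8, 1827 and 1662 CPM, a log2 fold change of 0.98 ± 0.10 (adjusted p = 0.00015, edgeR). In both genes every deficient library lay above every other shoot library.

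The other risers fall outside the rule for named genes and are named because the genes that rose are few. Zm00004b007957 went from 757, 678 and 652 CPM to 1309, 1181 and 1060.2 CPM (log2 fold change 0.77 ± 0.096, adjusted p = 0.00056, edgeR). Zm00004b007958 went from 628, 578 and 531 CPM to 1131, 1039.5 and 923 CPM (0.83 ± 0.095, adjusted p = 0.00027, edgeR). The remaining 6 identifiers of the span were at no more than 1.67 CPM in any shoot library, so the 4 are all the genes of the span with an appreciable level. They made up 5.05 ± 0.27% of the set's summed CPM in sufficient, 13.2 ± 1.1% in deficient and 4.96 ± 0.29% in resupplied shoots (SD, n = 3), and none of them exceeded 0.339 CPM in any root library. As for the falling run, exchange of reads between similar neighbours was not tested.

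**Figure D3:**
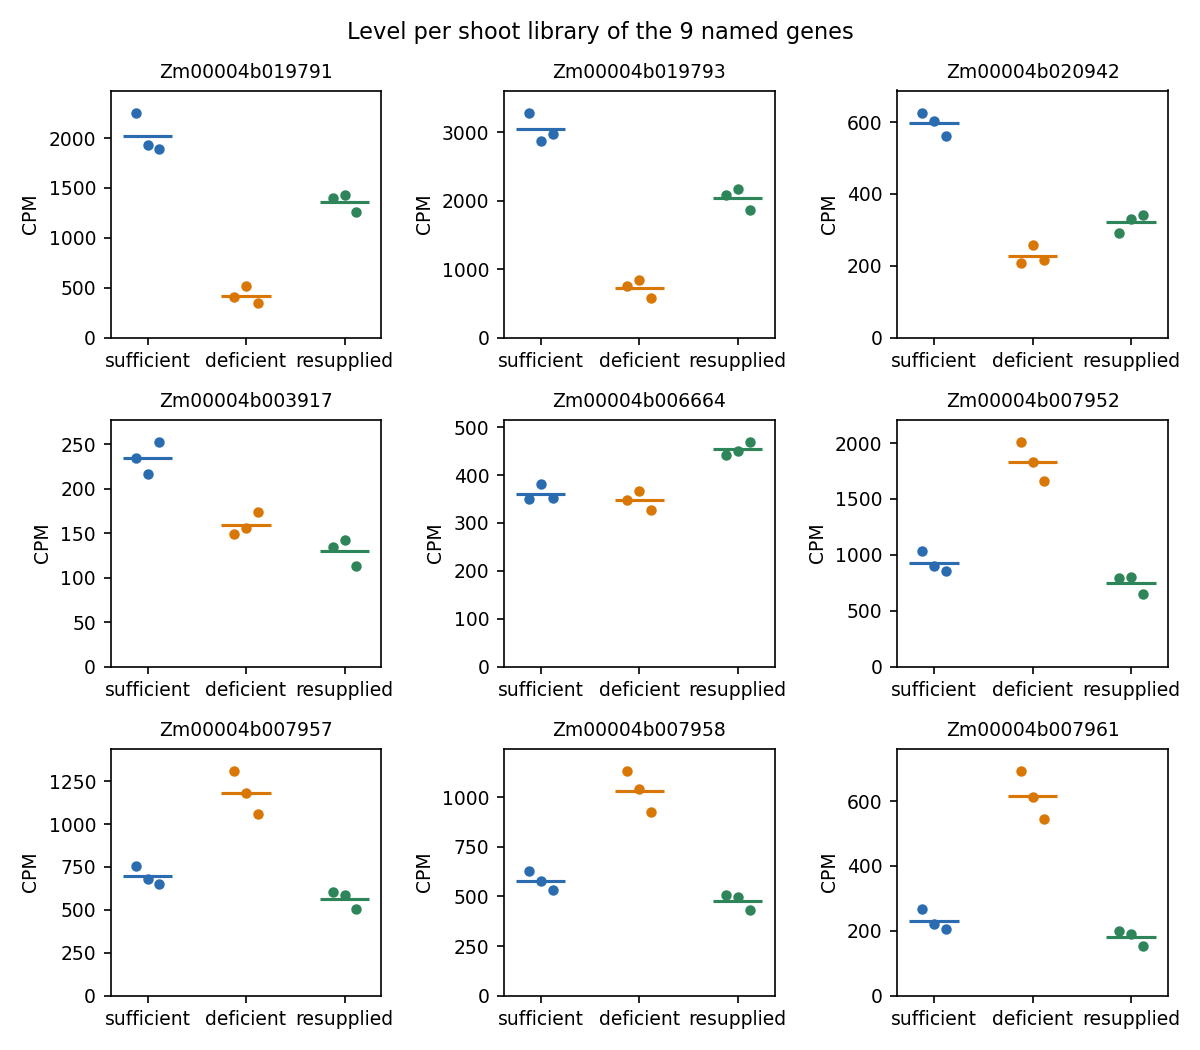
Level (CPM) of 9 genes in each shoot library, with points for libraries and lines for means of 3, on axes that start at 0. Zm00004b019791, Zm00004b019793 and Zm00004b020942 are lowest in deficient shoots, and Zm00004b007952, Zm00004b007957, Zm00004b007958 and Zm00004b007961 are highest there.

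Neighbouring identifiers did not move alike throughout. Besides the run of 3, the set holds 4 pairs of consecutive identifiers, so that 11 of the 95 genes have a neighbour in it. In the pair Zm00004b002403 and Zm00004b002404, the first fell on resupply against deficiency (log2 fold change -1.0 ± 0.15, adjusted p = 0.002, edgeR) and the second was not called (0.26, adjusted p = 0.14). The pair Zm00004b028305 and Zm00004b028306 fell in deficiency by 0.55 and 1.20 on the log2 scale (adjusted p = 6e-04 and 1.2e-05, edgeR), and neither Zm00004b020047 nor Zm00004b020048 was called in any of the 3 comparisons, with log2 fold changes of -0.27 to 0.13. These pairs were picked out after their values were seen.

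On resupply the picture was mixed. Against deficient shoots 37 of the 95 genes were called (38.9%), where 8.58% of all genes were. Of the 95, 28 rose (29.5%), where 4.86% of all genes did, and 9 fell (9.47%), where 3.72% did. The median log2 fold change of the set was 0.10, against 0.0007 over all genes, with a range of -1.77 to 1.70. In 36 genes the resupplied libraries lay above all deficient ones, as in 14.4% of genes tested, and in 20 below, as in 13.5%. Among the other abundant shoot genes 334 of 1455 rose (23.0%) and 93 fell (6.39%), with a median of 0.08. With total-count scaling 22 of the 95 were higher and 20 lower, and with all 18 libraries in the fit 0 were higher and 4 lower. These settings called 2454 and 1309 of all genes in that order, against 2258 in the main fit. This comparison and the one in deficiency share the 3 deficient libraries, so opposite changes in them are not independent.

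The largest rises on resupply were those of Zm00004b019791 and Zm00004b019793, with log2 fold changes of 1.70 ± 0.13 (SE, adjusted p = 1.7e-05, edgeR) and 1.5 ± 0.12 (adjusted p = 3.2e-05). The largest falls were those of Zm00004b007961 and Zm00004b007952. Zm00004b007961 dropped to 198.8, 190.9 and 152.4 CPM, a log2 fold change of -1.77 ± 0.13 against deficient shoots (adjusted p = 1.4e-05, edgeR). Zm00004b007952 dropped to 792, 805 and 654 CPM, a log2 fold change of -1.29 ± 0.10 (adjusted p = 3e-05, edgeR). For both, the resupplied libraries lay below all deficient and all sufficient ones. Neither was called against sufficient shoots (adjusted p = 0.094 and 0.081 in that order, edgeR).

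At 24 hours of resupply many genes of the set were below their level in sufficient shoots. In resupplied against sufficient shoots 42 of the 95 genes were called (44.2%), where 9.51% of all genes were. Of the 95, 41 were lower (43.2%), where 5.47% of all genes were, and 1 was higher (1.05%), where 4.05% were. The median log2 difference of the set was -0.28, against 0.0001 over all genes, and the range of -0.89 to 0.70 held no gene called at 2-fold or more. The floor of 100 CPM in each shoot library limits this range. The 28 genes described above, with a shoot library below 100 CPM, included 3 called at least 2-fold lower and 2 at least 2-fold higher. In 51 genes the resupplied libraries lay below all sufficient ones, as in 14.7% of genes tested, and in 5 above, as in 13.2%. Of the other abundant shoot genes 256 were lower (17.6%) and 174 higher (12.0%), with a median of -0.01. Total-count scaling gave 30 lower and 7 higher, and the fit over all 18 libraries called 0 of the 95 here, as tested by the same edgeR procedure. These settings called 3378 and 1300 of all genes in that order, against 2504 in the main fit. The count of 42 calls also depends on single libraries, at 23 without sufficient shoot library 1, 27 without sufficient library 3 and 23 without resupplied library 3. Calls over all genes dropped in these fits too, to 1334, 1456 and 1102 in that order, against 2504 in the main fit.

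Zm00004b020942 had the largest remaining deficit. It stood at 625, 604 and 562 CPM in sufficient, 209, 259 and 216 CPM in deficient and 293, 331 and 342 CPM in resupplied shoots, with a log2 difference of -0.89 ± 0.095 from sufficient shoots (SE, adjusted p = 0.00041, edgeR). It had fallen by 1.39 on the log2 scale in deficiency and rose by 0.50 on resupply (adjusted p = 6.8e-06 and 0.0063). Zm00004b003917 came next with -0.85 ± 0.097 (adjusted p = 0.00056, edgeR). Its levels were 235, 216 and 253 CPM in sufficient, 149, 156 and 174 CPM in deficient and 134, 142 and 113 CPM in resupplied shoots, so that its resupplied libraries were the lowest of the 9.

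Zm00004b006664 was the 1 gene called higher in resupplied than in sufficient shoots. It stood at 349, 382 and 352 CPM in sufficient, 349, 366 and 327 CPM in deficient and 443, 449.7 and 469 CPM in resupplied shoots. The sufficient and deficient libraries overlapped, and the resupplied ones lay above both. The difference from sufficient shoots was 0.33 ± 0.071 (adjusted p = 0.013, edgeR), and it was no longer called without sufficient library 1 (adjusted p = 0.051) or resupplied library 3 (0.053).

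**Figure D4:**
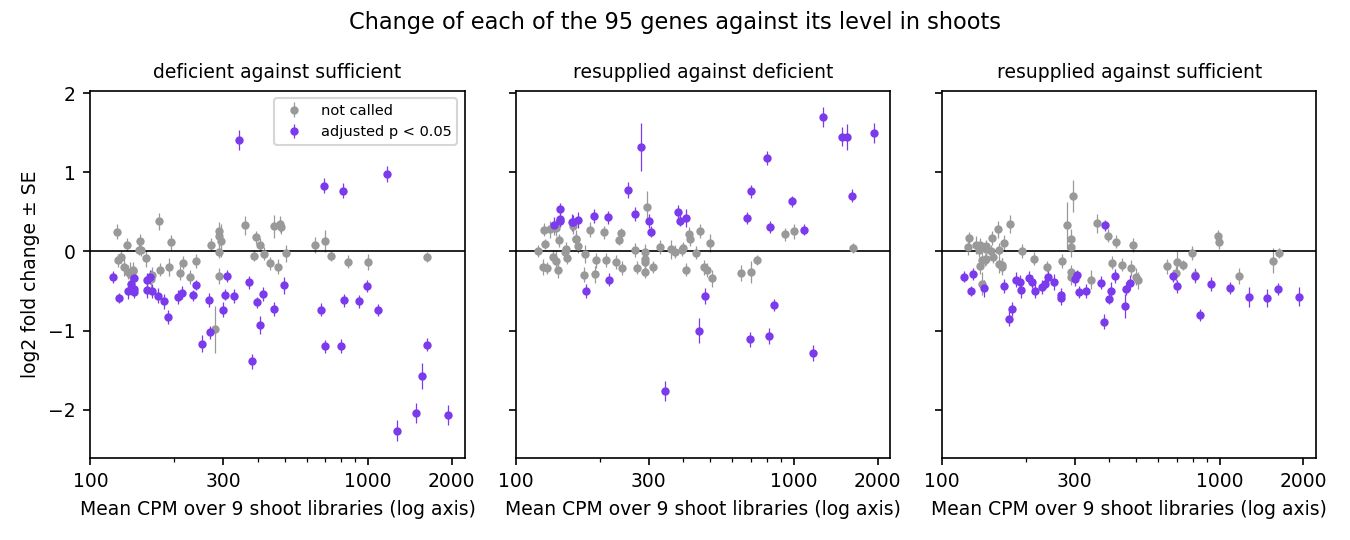
Log2 fold change with SE of each of the 95 genes in the 3 comparisons between shoot groups, against its mean CPM over the 9 shoot libraries on a log axis; purple points have an adjusted p under 0.05. Changes reach -2.27 and 1.41 in deficiency, while after resupply all called differences from sufficient shoots lie between -0.89 and 0.33.

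The 36 genes with no called difference among the 3 groups had a ratio of highest to lowest group mean of 1.02 to 1.62, with a median of 1.20. For the 59 that differed it was at most 4.82 with a median of 1.53, and 16 reached 2. The second most abundant gene of the set was among the 36 and is singled out after its values were seen: Zm00004b030059 stood at 1704, 1641 and 1655 CPM in sufficient, 1673, 1540.0 and 1546 CPM in deficient and 1659, 1637 and 1618 CPM in resupplied shoots. Its log2 fold change in deficiency was -0.07 ± 0.062 (SE, adjusted p = 0.60, edgeR), and its libraries overlapped between all conditions. Replicates were far apart for a few genes only: 7 of the 95 had a coefficient of variation over 20% in some shoot group and 3 over 30%. The widest was Zm00004b038129, also picked for this after its values were seen, with 476, 213 and 225 CPM in sufficient, 226, 123 and 112 CPM in deficient and 378, 410.2 and 361 CPM in resupplied shoots. It is one of the 59 genes that differed: its log2 fold change of -0.98 ± 0.30 in deficiency was not called (adjusted p = 0.082, edgeR), and it rose by 1.32 ± 0.30 on resupply against deficiency (adjusted p = 0.018).

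Within the set, the falls were more frequent among genes with a slight root level than among those closest to 0. Root levels under 1 CPM rest on few counts, so genes of the set were split here by trace amounts. Of the 35 genes with a root median of at most 0.1 CPM, 8 fell in deficiency (22.9%) and 3 rose, with a median log2 fold change of -0.07. Of the 60 with a root median of 0.1 to 0.5 CPM, 36 fell (60%) and 1 rose, with a median of -0.46. The shoot levels of these 2 groups were alike, with medians of 280.5 and 293.0 CPM. Of the 22 genes that had at most 0.5 CPM in each root library, 4 fell and 4 rose, where 4.44% and 1.26% of all genes did. These 4 that rose are the genes within the span of 10 identifiers described above. Among abundant shoot genes outside the set, 104 of 164 with a root median of 0.5 to 5 CPM fell (63.4%), 128 of 305 with 5 to 50 CPM (42.0%) and 54 of 986 above 50 CPM (5.48%). The share that fell was thus lower at both ends of this range of root levels than in between. These bands were drawn after the data were examined, and no test was made between them.

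After resupply the share that was lower than in sufficient shoots was also smallest in the outer bands. It was 9 of the 35 genes with the lowest root medians (25.7%), 32 of the 60 (53.3%), 79 of the 164 (48.2%), 95 of the 305 (31.1%) and 82 of the 986 (8.32%). When the set was split by abundance into 3 parts, 15 of 32 of the most abundant, 15 of 32 of the middle and 14 of 31 of the least abundant genes fell in deficiency. Falls of at least 2-fold were found for 7, 3 and 0 of them in that order. The rule itself limits this last count. The floor of 100 CPM in each shoot library leaves little room for such falls in the least abundant part, with a median of 143.9 CPM.

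**Figure D5:**
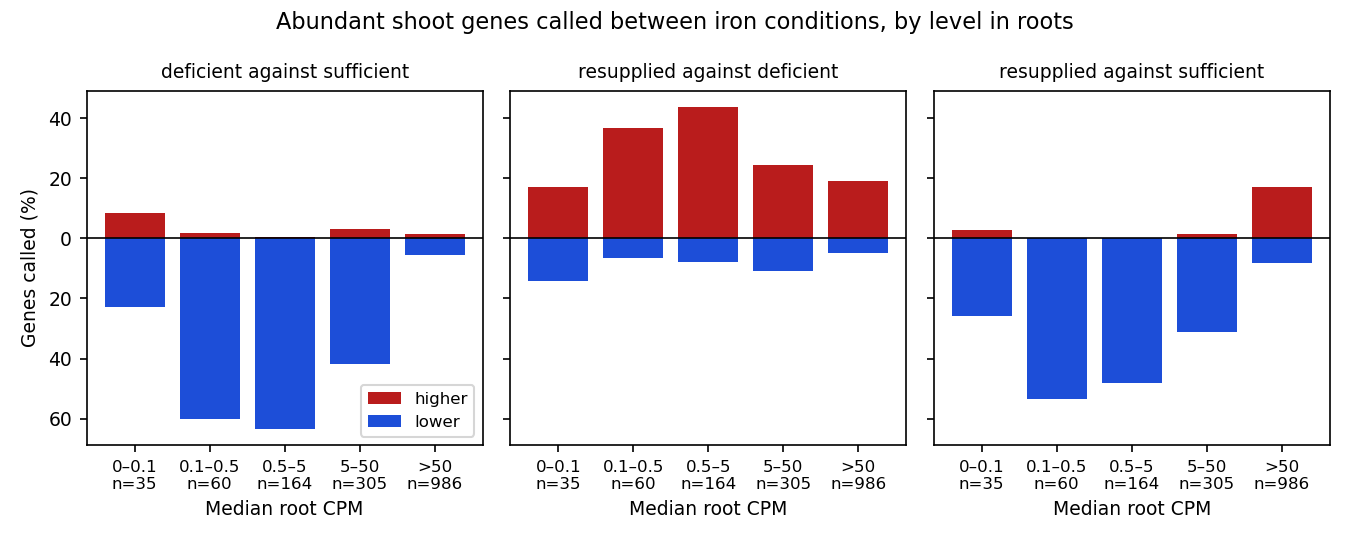
Percent of abundant shoot genes (at least 100 CPM in each shoot library) called higher (red, upward) or lower (blue, downward) in each comparison, by their median root CPM; the 2 bands on the left are the 95 genes. In deficiency the blue bar is 22.9% in the lowest band, 60% and 63.4% in the next 2, and 5.48% above 50 CPM.

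The authors' deposited tables, which come from DESeq2, list all 95 genes in the 3 shoot comparisons. In the authors' deposited table for deficiency 52 of them are lower and 7 higher, against 7.75% and 3.25% of the genes with an adjusted p. In the authors' deposited table for resupply against deficiency 41 are higher and 20 lower, against 8.97% and 7.21%. For resupply against sufficiency, 51 are lower and 5 higher in the authors' deposited table, against 8.94% and 7.58%. No gene of the set was called in opposite directions by the authors' deposited tables and by edgeR.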

How the data were processed

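Members and lists were chosen with earlier results of these data known. RNA-seq libraries of W22 maize roots and shoots were used, 18 in all. The authors deposited estimated counts per gene, whole numbers, which rounding left as they were. Trim Galore, HISAT2, StringTie and DESeq2 are named in the submitters' processing notes; their versions, the annotation and the build were not given in the sources used here. Deposited with them by the authors, the DESeq2 tables hold, per the file headers, a base mean (a normalised signal), a log2 fold change, a standard error and Wald score, and p-values; they were set beside the tests only.

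CPM came from edgeR 4.0.16 (R 4.3.3), TMM over 18 libraries, no filter. The 9 shoot libraries were fitted with edgeR's quasi-likelihood test (TMM, filterByExpr, group only), adjusted over 26318 genes. SEs were derived from the F statistic. The steps were tested on simulated counts. Alternatives covered scaling, filter, DESeq2 1.42.0, a robust fit, counts divided by 4, the replicate block, single libraries left out and other membership limits. The rule for named genes takes, per comparison, the 2 called members with the largest rise and the 2 with the largest fall; other identifiers were chosen after their values were seen. Nothing says that replicates came from separate cultures beyond the word biological, so p-values measure the spread between these libraries.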

Additional observations from a re-analysis of the deposited data

How the results depend on the processing

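Of 59 genes called among the 3 shoot groups, 48 called in deficiency, 37 on resupply against deficiency and 42 in resupplied against sufficient shoots, counts stayed within 1.5 times under total-count scaling, DESeq2 size factors, no filter, DESeq2, a robust fit and counts divided by 4. With all 18 libraries in the fit they were 4, 1, 4 and 0, and the median SE rose to 0.40 there. That fit called 2009, 519, 1309 and 1300 of all genes, against 3608, 1499, 2258 and 2504 in the main fit. Leaving out single libraries gave 52 to 66, 40 to 51, 26 to 38 and 23 to 49. Over all genes those fits called 2382 to 4008, 807 to 1675, 1272 to 2331 and 1102 to 3032. Limits of 50 and 200 CPM gave 171 and 50 members, with 103 and 32, 82 and 27, 62 and 22, and 72 and 24 called. A root median of at most 0.1 CPM (35 members) gave 16, 11, 11 and 10, and at most 0.5 CPM in each root library (22 members) gave 14, 8, 9 and 7. Across the 7 membership limits tried, 31.4 to 55.5% of members were called in deficiency.

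The summed share of counts changed by -17.1%, 6.97% and -11.4% in the 3 comparisons. On TMM-scaled CPM the changes were -26.6%, 12.4% and -17.5%. Without the 5 most abundant members the changes in the share of counts were -5.57%, -4.22% (reversed) and -9.55%. Leaving out single libraries gave -18.6 to -15.4%, 4.74 to 9.0% and -12.4 to -9.68%. Without the 7 members of the falling and rising identifier runs, an alternative chosen after seeing the data, they were -14.7%, 7.76% and -8.04%.

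Same-numbered shoot libraries had correlations of -0.056 to 0.035 in their deviations from the group means, and differently numbered ones -0.047 to 0.031. With the replicate block 67, 50, 39 and 53 members were called. That fit called 3656, 1571, 2369 and 2564 of all genes, against 3608, 1499, 2258 and 2504 in the main fit. The median SE of members in deficiency was then 0.079 in place of 0.088. Whether the replicate numbers mark a pairing is thus not settled. With all 18 libraries in the fit, the members still called were Zm00004b007961 in deficiency, and it, Zm00004b007952, Zm00004b007957 and Zm00004b007958 on resupply against deficiency (adjusted p = 0.00042 to 0.032, edgeR). Depth limits no shoot value here, since the lowest count was 6220; in roots, levels under 1 CPM rest on few counts.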
